A study of Mus musculus with 12 samples.

Results

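The cytosolic ribosomal protein genes were followed in mouse embryonic fibroblasts (MEFs) that had lost RTF2, a protein of the replication fork. Members were all genes of the count table whose symbol began with Rpl or Rps followed by a digit, p or a, without the pseudogene symbols and the Rps6k kinases, which gave 89 of the 24045 genes with a symbol. Of these, 46 encode proteins of the 60S subunit and 31 encode proteins of the 40S subunit, and the remaining 12 are paralogs, retrogenes and other genes that carry such a symbol. The rule used names only and no measured value. Each group was 1 SV40-immortalized MEF line sequenced as 3 technical libraries: WT line 1 and WT line 2 (Rtf2+/+) and RTF2-deficient line 1 and line 2 (Rtf2-/lox), lines 1 and 2 being the biological replicates. All 12 libraries came from cells that had received Cre recombinase by Hit & Run retrovirus 72 h before harvest, so the WT cells carried Cre as well. The p-values below measure the spread between technical libraries, and only the 2 lines bear on biological variation. In bulk RNA, fewer cells and less RNA per cell cannot be told apart.

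The ribosome is built from rRNA and a fixed set of ribosomal proteins, which cells make in matched amounts. In proliferating fibroblasts the ribosomal protein mRNAs are among the most abundant of all. They are controlled largely at translation: most begin with a terminal oligopyrimidine (TOP) tract, a C followed by a run of C and T at the first base, through which mTORC1 and LARP1 set how well the whole family is translated. Such control need not change mRNA levels, which are what was counted here. Ribosomal proteins that are made in excess of rRNA are degraded, and free Rpl5 and Rpl11 can bind Mdm2 and so restrain p53 turnover.

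The member rule did not use sequence, and a run of the TOP kind stood at the annotated start of a minority of the members. RefSeq start sequences (GRCm38.p6, the same assembly as mm10) matched 68 of the 89 members. A C at the annotated first base followed by at least 4 bases of C or T, read on the gene's strand only, was present in 14 of 68 members (20.6%) and in 813 of 27025 genes with a sequence (3.01%). When the C was allowed within 5 bases of the annotated start on either side, 31 members (45.6%) and 21.2% of all genes had such a run. These shares depend on how precisely each start is annotated. The windows run from 20 bases before the start to 20 bases from the start onward, 5′ to 3′, and capitals mark the pyrimidine run from the first base. The first 6 windows were picked because they hold a run: Rps6, Rplp2 and Rps27 are also described below, and Rpl15, Rpl35 and Rps10 have long runs. The last 5 show genes described below whose annotated first base starts no run: Rpl22 at its 2 annotated starts, its paralog Rpl22l1, Rps4x, and Rps27l at 1 of its 2 annotated starts.
Rps6, chr4:86857348-86857387, minus strand: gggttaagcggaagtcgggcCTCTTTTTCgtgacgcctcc
Rplp2, chr7:141447631-141447670, plus strand: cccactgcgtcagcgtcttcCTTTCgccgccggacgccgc
Rps27, chr3:90213629-90213668, minus strand: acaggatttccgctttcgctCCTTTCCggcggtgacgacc
Rpl15, chr14:18270967-18271006, minus strand: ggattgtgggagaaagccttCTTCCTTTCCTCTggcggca
Rpl35, chr2:39005112-39005151, minus strand: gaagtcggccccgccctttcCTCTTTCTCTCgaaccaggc
Rps10, chr17:27635225-27635264, minus strand: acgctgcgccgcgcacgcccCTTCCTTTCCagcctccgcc
Rpl22, chr4:152324416-152324455, plus strand: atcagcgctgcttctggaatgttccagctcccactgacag
Rpl22, chr4:152325706-152325745, plus strand: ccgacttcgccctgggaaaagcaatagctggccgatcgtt
Rpl22l1, chr3:28805488-28805527, plus strand: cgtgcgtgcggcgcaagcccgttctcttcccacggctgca
Rps4x, chrX:102189372-102189411, minus strand: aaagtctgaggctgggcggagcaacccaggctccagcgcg
Rps27l, chr9:66946066-66946105, plus strand: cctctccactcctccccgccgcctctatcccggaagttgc
In the first 6 windows the run spans 5 bases in Rplp2, 7 in Rps27, 9 in Rps6, 10 in Rps10, 11 in Rpl35 and 13 in Rpl15.

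Library totals lay between 39360167 and 44695002 counts. Rtf2 fell from 45.6 ± 1.35 to 5.79 ± 0.443 CPM in line 1 and from 53.9 ± 3.52 to 6.49 ± 0.168 CPM in line 2 (mean ± SD, n = 3 technical libraries; CPM, counts scaled to one library size after TMM), as the labels state. All 11 fibroblast markers exceeded 1 CPM in every group, and their sum of 20008 to 32031 CPM per library stood far above that of the macrophage (2.48 to 9.66 CPM), endothelial (10.7 to 21.5 CPM), epithelial (0.446 to 3.63 CPM), erythroid (0.239 to 0.626 CPM) and neural markers (9.21 to 53.9 CPM). WT line 2 stood highest in a list of 20 interferon-stimulated genes, whose sum was 8089, 888 and 2435 CPM in its 3 libraries, 227, 411 and 3168 CPM in RTF2-deficient line 2 and at most 588 CPM in line 1.

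The ribosomal protein genes are spread over the genome and strongly expressed. The 77 genes of the 60S and 40S lists lie on 19 chromosomes, with Rpl10, Rpl36a, Rpl39 and Rps4x on X. Their transcripts are short, with a median of 729 bases against 2822 bases for the 13628 genes tested that had a length. By CPM per kilobase of transcript, 72 of the 77 were among the 200 highest genes of these fibroblasts, and the lowest of them ranked at 483. The median level was 663 CPM per kb for the 60S genes (quartiles 493 and 806) and 723 CPM per kb for the 40S genes (quartiles 575 and 884), against 8.53 CPM per kb over all genes tested with a length.

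The order of levels within the family was led by Rplp1, a P-stalk protein that recruits translation factors, at 1770 ± 254 CPM per kb (mean ± SD over 12 libraries, range 1295 to 2124). Rps2, at the entry of the mRNA channel, followed at 1624 ± 276 CPM per kb, and Rps12 at 1599 ± 246 CPM per kb. Rpl23a, at the rim of the exit tunnel, stood at 1459 ± 177 CPM per kb and Rpl41, the smallest ribosomal protein, at 1352 ± 219 CPM per kb. The ranges of these 5 genes over the libraries overlapped, but much of each range was shared by the family, so the order was also read within each library. Rplp1 exceeded Rps2 in 11 of 12 libraries, Rps12 exceeded Rpl23a in 11 and Rpl23a exceeded Rpl41 in 11, while Rps2 exceeded Rps12 in only 7.

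The lowest 5 genes of the subunit lists were Rpl39 (339 ± 50 CPM per kb), which lines the exit tunnel, Rps3 (334 ± 45.3 CPM per kb), Rpl14 (312 ± 45.9 CPM per kb), Rpl37 (247 ± 29.8 CPM per kb) and Rps20 (141 ± 12.4 CPM per kb). Rpl39 exceeded Rps3 in 7 of 12 libraries and Rps3 exceeded Rpl14 in 9, whereas Rpl14 exceeded Rpl37 and Rpl37 exceeded Rps20 in all 12. The length chosen moved some places: the Rps20 transcript used had 3706 bases with a coding part of 357, and per kilobase of coding sequence Rps20 ranked 11 of 77 and Rpl39 ranked 14. Rpl41, with 75 coding bases, ranked 1 on that scale.

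**Figure D1:**
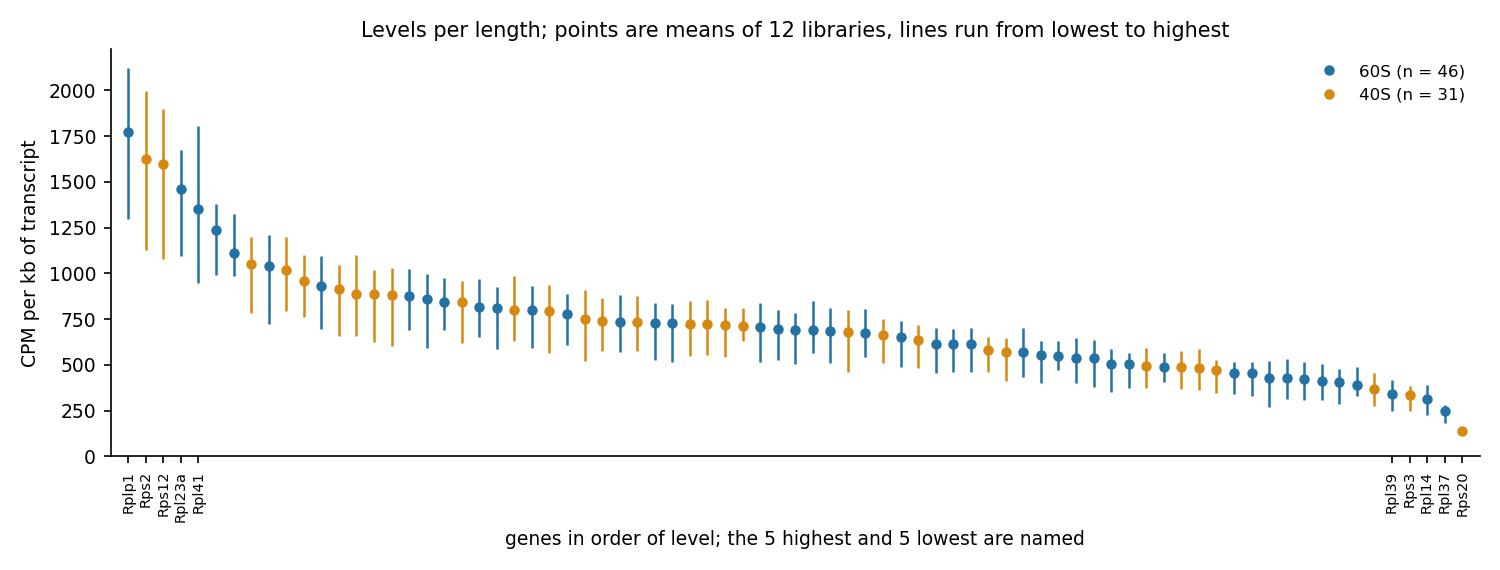
CPM per kilobase of transcript for the 77 genes of the 60S (blue) and 40S (orange) lists, ordered by level, with the 5 highest and 5 lowest named; points are means of the 12 libraries and lines run from the lowest to the highest library. Levels fall from 1770 for Rplp1 to 141 for Rps20, and the lines, which include the movement that the family shares, span a wide range for most genes.

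The share of the family in the mRNA overlapped between WT and RTF2-deficient cells. The 89 genes took 4.03, 4.78 and 4.85% of the counts in the 3 libraries of WT line 1 and 3.92, 4.63 and 4.47% in RTF2-deficient line 1. They took 3.50, 5.16 and 4.22% in WT line 2 and 4.79, 4.36 and 4.09% in RTF2-deficient line 2. The group means were 4.55 ± 0.455, 4.34 ± 0.372, 4.29 ± 0.832 and 4.41 ± 0.353% (SD, n = 3 technical libraries), so WT and RTF2-deficient libraries overlapped in both lines. Libraries of the same replicate number deviated together in line 1 and not in line 2, and between same-numbered libraries the share in RTF2-deficient minus WT cells was -0.108, -0.153 and -0.373 percentage points in line 1 and 1.29, -0.797 and -0.127 percentage points in line 2. The 60S genes had 1.41 to 1.44 times the counts of the 40S genes in every library, so the subunits kept one balance while the share moved.

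The share differed more between sister libraries of one group than between genotypes. In WT line 2 the lowest and highest libraries stood at 3.50 and 5.16%, and all 77 genes of the subunit lists were lowest in replicate 1 and highest in replicate 2. In WT line 1 and RTF2-deficient line 1, all 77 were lowest in replicate 1. In RTF2-deficient line 2, all 77 were highest in replicate 1 and 70 were lowest in replicate 3. Counting error does not reach this spread: the median coefficient of variation between sisters was 14.5% per gene, against 0.692% from counting alone.

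**Figure D2:**
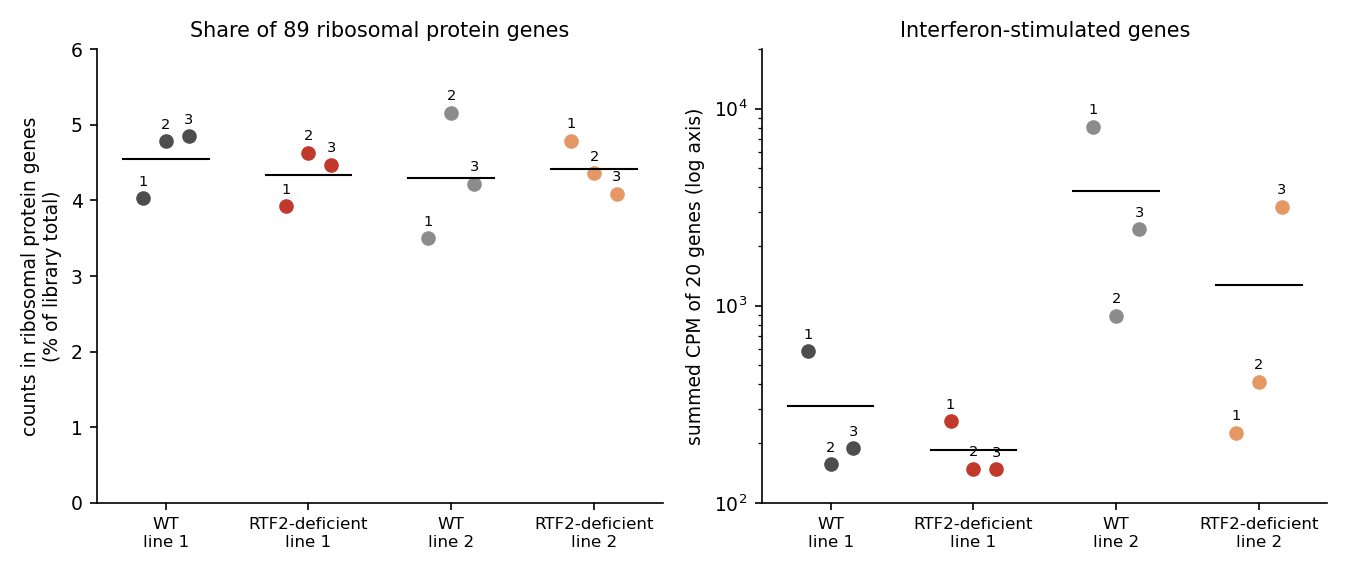
Left, the share of each library's counts in the 89 ribosomal protein genes (%); right, the summed CPM of 20 interferon-stimulated genes (log axis); points are libraries with their replicate number and bars are group means. Shares overlap between genotypes, and in each group the library with the lowest share has the highest interferon sum.

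Within groups, the interferon-stimulated genes were highest where the share of the family was lowest, but this order did not hold over all libraries. In all 4 groups, the library with the lowest ribosomal protein share had the highest interferon sum of its group: 588 CPM beside 4.03% in WT line 1, 259 CPM beside 3.92% in RTF2-deficient line 1, 8089 CPM beside 3.50% in WT line 2 and 3168 CPM beside 4.09% in RTF2-deficient line 2. At the libraries with the highest share, the interferon sums were 189, 149, 888 and 227 CPM. The 888 CPM of WT line 2 replicate 2 lay above every library of line 1. This match was noticed after the values were seen, the libraries of a group are technical replicates, and its part in the results below was not tested. A second measure moved as well: the trend of all genes with length, read at 800 bases, deviated by 0.20 (log2) from the mean of the libraries in WT line 2 replicate 2 and by -0.07 in WT line 2 replicate 1, and the part of this length trend is covered by a fit below.

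Because the members moved together, much of the spread of each gene was shared by the family. Subtracting each library's median over the 77 genes lowered the median SD between sisters from 0.178 to 0.0507 (log2) in WT line 1, from 0.137 to 0.035 in RTF2-deficient line 1, from 0.316 to 0.052 in WT line 2 and from 0.149 to 0.0401 in RTF2-deficient line 2. The SD became smaller in 77, 72, 77 and 73 of the 77 genes. The median gene of all those tested had a SD of 0.159, 0.141, 0.18 and 0.157 in the same groups.

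**Figure D3:**
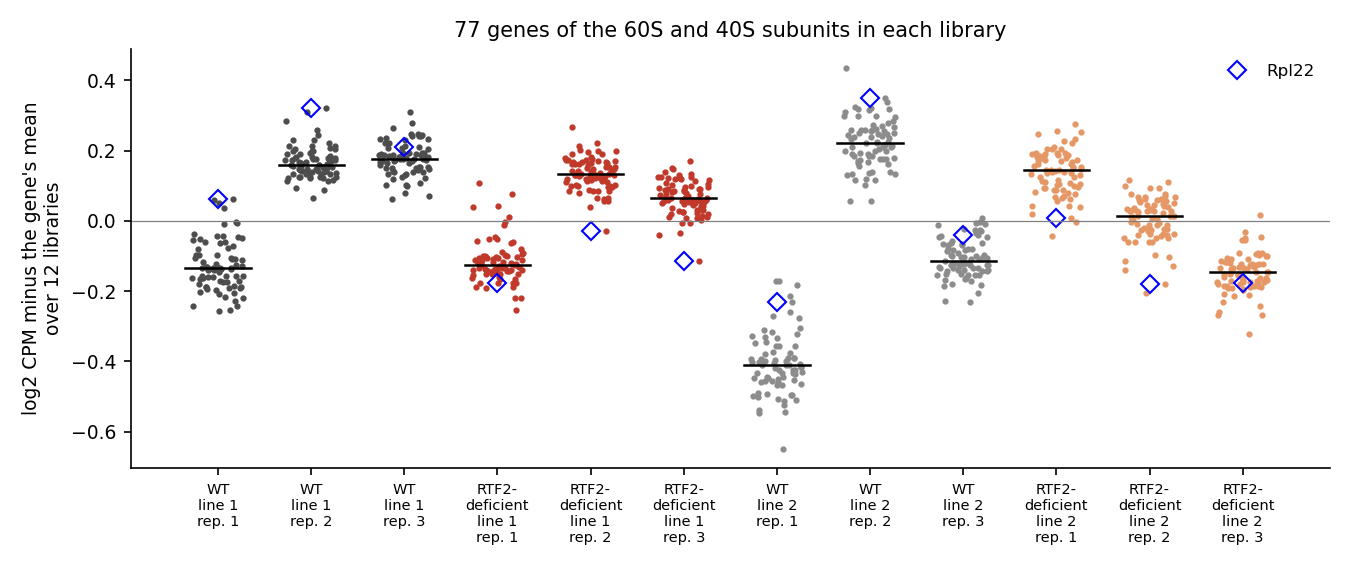
log2 CPM of the 77 genes in each library minus the gene's mean over the 12 libraries; points are genes, black bars the library's median, and blue diamonds mark Rpl22. The medians run from -0.41 in WT line 2 replicate 1 to 0.22 in WT line 2 replicate 2, and Rpl22 lies above the median in all 6 WT libraries and below it in all 6 RTF2-deficient libraries.

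No single ribosomal protein gene passed the test for an effect of RTF2 loss over both lines. Of the 85 members that passed the filter on low counts, none was called: 0 lower and 0 higher after RTF2 loss (edgeR's quasi-likelihood test, Benjamini-Hochberg adjusted p under 0.05 over 14263 genes), against 8.18% lower and 4.98% higher of all genes tested. At an unadjusted p under 0.05 there was 1 member (Rpl22), against 28.5% of all genes. DESeq2 also called 0, with 1 at an unadjusted p under 0.05 and no adjusted p for Rpl39l, and called 18.9% of all genes, with 30.5% at an unadjusted p under 0.05. With a log2 fold change beyond 1 required as well, 0 members and 1.72% of all genes were called. In 0 members did the 6 WT and 6 RTF2-deficient libraries fail to overlap, against 5.97% of all genes.

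The intervals cover only the spread between technical libraries, so they do not bound the effect of RTF2 loss in other lines. The median log2 fold change was 0.03 over the 85 members and 0.00 over all genes tested, with 30 members below 0, and the median was 0.04 for the 60S and 0.01 for the 40S genes. The 77 genes of the subunit lists lay between -0.23 (Rpl22) and 0.15 (Rps12). All 77 had a 95% interval inside -0.5 to 0.5, the outermost bounds being -0.43 for Rpl22 and 0.40 for Rps12. The median size of a member's log2 fold change was 0.06, against 0.15 over all genes tested. With the length trend removed, the median over the members was 0.11, against 0.02 over all genes, with 9 members at an unadjusted p under 0.05 and 1 called (Rpl22), against 30% and 14.2% of all genes.

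The proteins with the best known separate roles gave similar values. For the P stalk, Rplp0 changed by a log2 fold change of -0.02 (95% interval -0.22 to 0.18), Rplp1 by -0.07 (-0.33 to 0.20) and Rplp2 by 0.03 (-0.21 to 0.27). Rpl5 and Rpl11, which bind 5S rRNA and in free form Mdm2, stood at 0.06 (-0.20 to 0.31) and 0.10 (-0.16 to 0.37). Rps19, the gene most often mutated in Diamond-Blackfan anaemia, stood at -0.04 (-0.25 to 0.17) and Rps6, the substrate of the S6 kinases, at 0.03 (-0.19 to 0.25). Rpsa, also known as the laminin receptor, stood at 0.06 (-0.19 to 0.30). None of these passed the test, with adjusted p-values from 0.614 (Rpl11) to 0.904 (Rplp0) in edgeR.

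Rplp0, which is often used as a reference gene, shows how the libraries lay: it had 1605, 1875 and 1856 CPM in WT line 1, 1559, 1791 and 1692 CPM in RTF2-deficient line 1, 1346, 1873 and 1599 CPM in WT line 2 and 1784, 1661 and 1506 CPM in RTF2-deficient line 2. The groups overlapped throughout, and the lowest value came from WT line 2 replicate 1. Rps6 had 742, 928 and 908 CPM in WT line 1, 752, 921 and 867 CPM in RTF2-deficient line 1, 668, 966 and 781 CPM in WT line 2 and 941, 843 and 766 CPM in RTF2-deficient line 2, again with overlap and with its lowest and highest values in WT line 2.

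Within the lines, the family leaned in opposite directions without a call. In line 1 the median log2 fold change over the members was -0.04 (0.01 over all genes), with 60 of 85 members below 0. In line 2 it was 0.09 (0.00 over all genes), with 17 below 0. In line 1, edgeR called 0 members lower and 0 higher, against 2.52% lower and 0.68% higher of all genes, and 2 members had an unadjusted p under 0.05 (Rpl22 and Rps4l), against 13.9% of all genes. In line 2 it called 0 and 0, against 7.03% lower and 5.42% higher of all genes, and 0 members had an unadjusted p under 0.05, against 27.8% of all genes. DESeq2 called 0 members in either line, against 5.97% and 18.1% of all genes, with 2 and 0 at an unadjusted p under 0.05, against 14.7% and 29.5%. Libraries did not overlap for 1 member in line 1 (Rpl22), against 21.1% of all genes, and for 0 members in line 2, against 29.5% of all genes.

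The difference between the lines was tested directly. The interaction, the effect in line 2 minus that in line 1, was called for 0 members in either direction, against 0.533% lower and 0.757% higher of all genes, with 1 member at an unadjusted p under 0.05 (Rps4l), against 8.49% of all genes. DESeq2 called 0 members and 2.87% of all genes, also with 1 member at an unadjusted p under 0.05, against 9.14%. The median interaction was 0.12 over the members and 0.00 over all genes, and 80 of 85 were above 0. This lean rested on 1 library: without WT line 2 replicate 1, which had the lowest share, the median interaction was -0.03, the median in line 2 was -0.04 and the median over both lines was -0.04. Without WT line 2 replicate 2, which had the highest share, the median interaction was 0.29, the median in line 2 was 0.26 and the median over both lines was 0.10. In line 1 the median was 0.04 without RTF2-deficient line 1 replicate 1 and -0.12 without WT line 1 replicate 1. The largest interactions in size were those of Rpl39l (-0.87, on at most 15 counts per library), Rps4l (-0.61, 95% interval -1.11 to -0.11, adjusted p = 0.387 in edgeR), Rps27 (0.28, -0.11 to 0.67) and Rpl9 (0.27, -0.17 to 0.71).

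Rps27 had 245, 277 and 280 CPM in WT line 1 against 224, 255 and 252 CPM in RTF2-deficient line 1, and 187, 274 and 216 CPM in WT line 2 against 263, 238 and 248 CPM in RTF2-deficient line 2. Rpl9 had 479, 557 and 553 against 464, 537 and 512 CPM in line 1, and 357, 534 and 443 against 568, 503 and 458 CPM in line 2. In both genes replicate 1 of WT line 2 was the lowest of all libraries, and the groups overlapped in both lines.

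**Figure D4:**
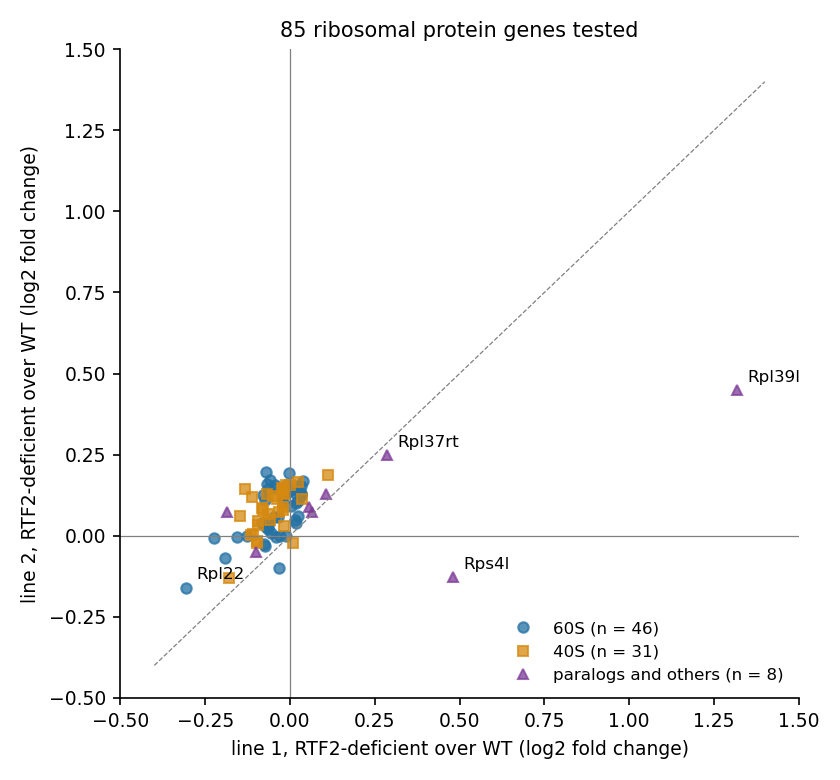
log2 fold change of RTF2-deficient over WT in line 1 (x axis) and line 2 (y axis) for the 85 ribosomal protein genes tested; the dashed line marks equal effects. Genes of both subunits lie in one cloud left of and above the centre, Rpl22 lies at -0.31 and -0.16, and Rps4l and Rpl39l lie to the right.

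Rpl22 was the lowest member. It encodes an RNA-binding protein at the surface of the 60S subunit that is known to restrain expression of its paralog Rpl22l1, and it lies on chromosome 4 (152324436 to 152334082). It had 190, 227 and 210 CPM in WT line 1 and 161, 178 and 168 CPM in RTF2-deficient line 1, without overlap. In line 2 it had 155, 231 and 177 CPM in WT and 183, 160 and 161 CPM in RTF2-deficient cells, which overlapped. The log2 fold change was -0.23 ± 0.09 (SE; 95% interval -0.43 to -0.03) over both lines with an adjusted p of 0.119 in edgeR, -0.31 in line 1 (adjusted p = 0.321 in edgeR) and -0.16 in line 2 (adjusted p = 0.471 in edgeR).

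Relative to the rest of the family, Rpl22 was lower in every RTF2-deficient library. Its share of all ribosomal protein counts was 0.475, 0.463 and 0.426% in WT line 1, 0.466, 0.455 and 0.433% in WT line 2, 0.398, 0.370 and 0.367% in RTF2-deficient line 1 and 0.379, 0.364 and 0.408% in RTF2-deficient line 2. The 6 WT and 6 RTF2-deficient libraries did not overlap on this scale for 4 of the 85 members, against 2.89% of all genes tested, each taken per ribosomal protein count. Besides Rpl22 these were Rps9, which was lower (1.42 to 1.48% in WT and 1.25 to 1.34% in RTF2-deficient libraries), and Rpl30 and Rps16, which were higher, the 3 being named after their values were seen. A fit scaled to the ribosomal protein genes alone, added after the values were seen, gave Rpl22 a log2 fold change of -0.26 ± 0.07 (SE) and an adjusted p of 0.0462 in edgeR, and Rps9 one of -0.18 ± 0.05 (SE) and an adjusted p of 0.0782. Rpl22 was the only 1 of the 85 members called in that fit, which called 3.67% of all genes, and 71 of the 77 genes of the subunit lists lay within 0.1 of 0. Over 23 other settings, Rpl22 ranged from -0.29 to -0.16 and its adjusted p in edgeR or DESeq2 from 0.037 to 0.229, and it passed the threshold in 3 of them: the fit just named, removal of the length trend (-0.16, adjusted p = 0.0478) and the fit without WT line 2 replicate 1 (-0.29, adjusted p = 0.037).

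The paralog Rpl22l1 (chromosome 3, 28805508 to 28807424) can take the place of Rpl22 in the ribosome. It had 81.3, 91 and 91.5 CPM in WT line 1 and 73.1, 83.4 and 75.2 CPM in RTF2-deficient line 1, and 53.8, 84.1 and 65.5 CPM in WT line 2 and 74.3, 67.8 and 71.9 CPM in RTF2-deficient line 2. Its log2 fold change was -0.06 (95% interval -0.27 to 0.16) over both lines, -0.19 (-0.48 to 0.11) in line 1 and 0.07 (-0.22 to 0.37) in line 2, and it passed the test in none of them. Per Rpl22 count, Rpl22l1 stood at 42.9, 40 and 43.6% in WT line 1 and at 45.5, 46.9 and 44.8% in RTF2-deficient line 1, and at 34.8, 36.3 and 37.1% in WT line 2 and at 40.7, 42.3 and 44.7% in RTF2-deficient line 2. The ratio was higher in RTF2-deficient cells without overlap in either line, by a log2 difference of 0.12 in line 1 and 0.24 in line 2.

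The mean of these differences was 0.18, or 1.13-fold, and leaving out each library in turn gave 0.16 to 0.19. This pattern was noticed after the values were seen, and it compares technical libraries of 1 line per group, so it is given as a description with no test. Between the WT lines, the mean ratio was 42.2 ± 1.86% in line 1 and 36.1 ± 1.17% in line 2 (SD, n = 3 technical libraries).

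The ratios of 4 other pairs are given in the same way. Rpl7l1, a Rpl7-like protein, stood at 12.4 to 17.6% of Rpl7 with a mean log2 difference of 0.04. Rpl36al stood at 58.0 to 73.1% of Rpl36a, with a difference of 0.09. Rps27l, which p53 induces, stood at 44.9 to 73.5% of Rps27, with a difference of -0.09. Rps4l stood at 2.25 to 7.19% of Rps4x, with a difference of 0.17. Its ratio was higher without overlap in RTF2-deficient line 1 (2.25, 2.35 and 2.97% in WT against 4.99, 3.17 and 3.52%) and overlapped in line 2 (7.19, 4.76 and 5.83% in WT against 4.21, 5.35 and 5.02%), with log2 differences of 0.61 and -0.28. Members of a pair share sequence, so the counting may have split reads between them, and single values are uncertain to that extent.

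**Figure D5:**
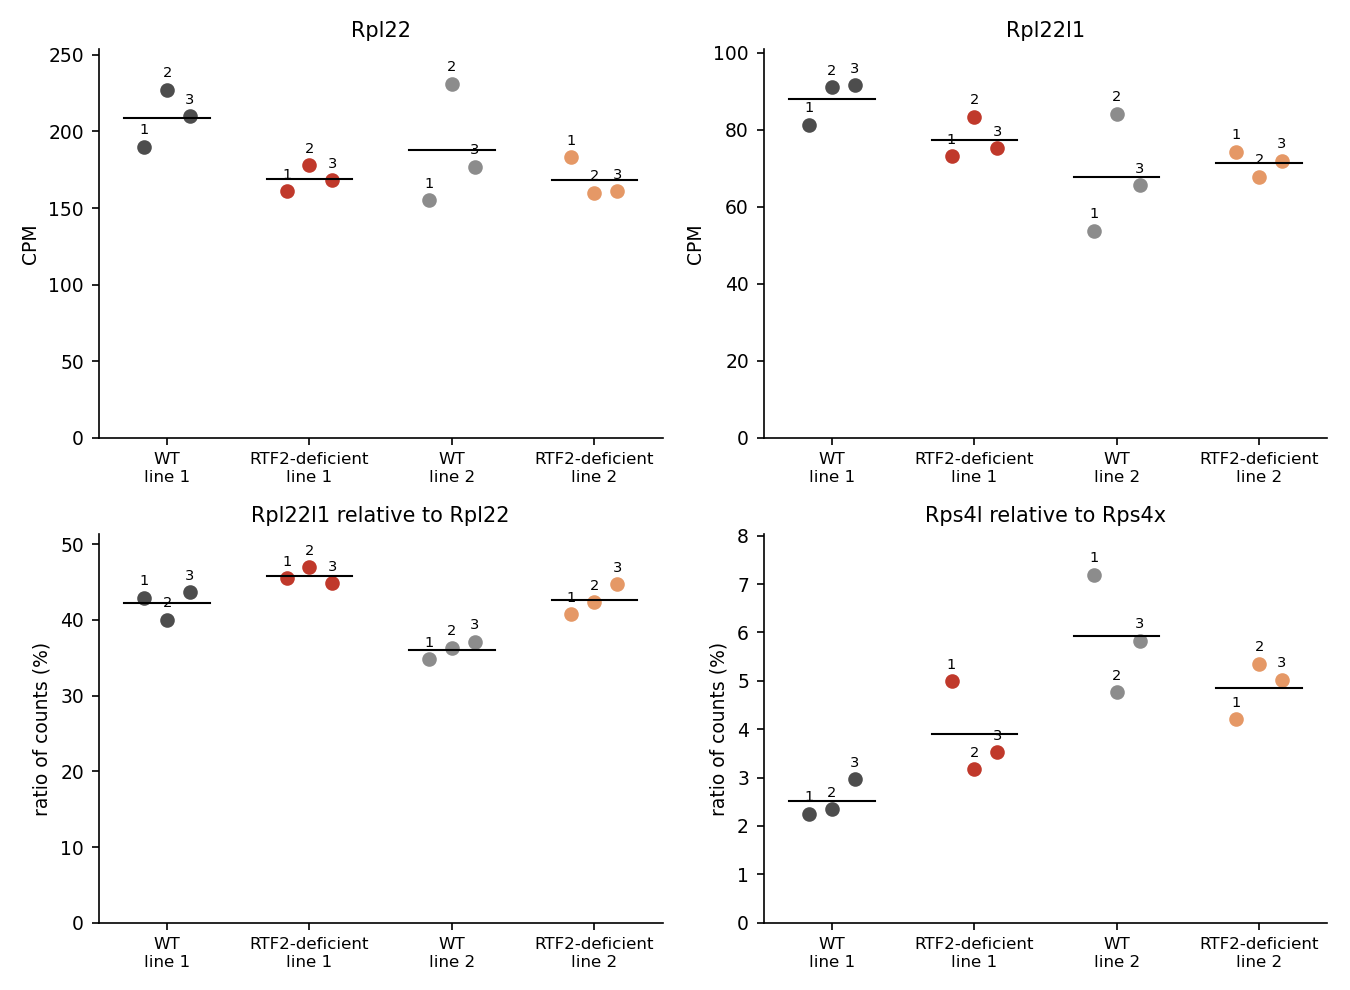
CPM of Rpl22 and Rpl22l1 (top), and counts of Rpl22l1 per count of Rpl22 and of Rps4l per count of Rps4x, in percent (bottom); points are libraries with their replicate number and bars are group means. The Rpl22l1 ratio is higher in RTF2-deficient than in WT libraries within each line, and the Rps4l ratio is lowest in WT line 1.

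The paralogs that are known from single tissues were at or near 0. Rpl3l, which belongs to heart and skeletal muscle, and Rpl10l, which belongs to the testis, had at most 1 count in any library, where a count of 0 allows up to 0.0671 to 0.0762 CPM (counting error only). Rpl39l, also a testis gene, had at most 15 counts, Rpl32l at most 6 and the retrogene Rps23rg1 at most 5. Their broadly expressed partners had 818 to 1196 CPM (Rpl3), 579 to 965 CPM (Rpl10) and 151 to 254 CPM (Rpl39). Rpl3l, Rpl10l, Rpl32l and Rps23rg1 were the 4 members that did not pass the filter.

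Among the other members outside the subunit lists, Rpl37rt, a retrotransposed copy of Rpl37, had 28.5 to 51.9 CPM and a log2 fold change of 0.27 (95% interval -0.07 to 0.60, adjusted p = 0.28 in edgeR). Rps19bp1, which binds Rps19 and the deacetylase Sirt1, had 14.7 to 20.7 CPM and 0.07 (-0.13 to 0.27). Rpl7l1 stood at 0.12 (-0.03 to 0.27), Rpl36al at 0.07 (-0.13 to 0.27) and Rps27l at -0.08 (-0.22 to 0.07). None of them passed the test.

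The WT lines served as a yardstick, since they differ in line and not in genotype. WT line 2 had lower ribosomal protein mRNA in 79 of the 85 members, with a median log2 difference of -0.14 against 0.02 over all genes, and this too rested on 1 library, since the median was -0.01 without WT line 2 replicate 1 and -0.33 without WT line 2 replicate 2. A single member passed the test: 0 were lower and 1 was higher, against 7.31% lower and 6.70% higher of all genes, with 4 at an unadjusted p under 0.05 (Rps4l, Rpl22l1, Rpl39l and Rpl10), against 28.1% of all genes. Libraries did not overlap for 2 members (Rps4l and Rpl39l), against 30.2% of all genes. Rpl39l had 0 to 4 counts in WT line 1 and 6 to 11 in WT line 2. It passed the filter on low counts only through line 2, where it was highest, so no difference is read from it. DESeq2 called 3 members (Rps4l, Rpl22l1 and Rpl10) and 19.3% of all genes, and the fit scaled to the family called 1 (Rps4l) and 6.51% of all genes.

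The count between the WT lines changed with the libraries kept, while the call of Rps4l stood in each fit. Without WT line 2 replicate 2, which had the highest share, 9 members were called, 8 of them lower (Rpl10, Rpl13a, Rpl22l1, Rpl37a, Rpl39, Rps15, Rps19 and Rps27) and Rps4l higher, against 7.12% lower and 8.10% higher of all genes in that fit. Without WT line 1 replicate 3, 2 were called (Rps4l and Rpl39l), against 10.9% of all genes. The call of Rpl39l rests on at most 11 counts in a WT library. The interferon-stimulated genes moved with this comparison, with 9 of 20 called higher in WT line 2 and a median log2 difference of 4.53, and their part in it was not tested.

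Rps4l was the member that differed between the WT lines. RefSeq lists it on chromosome 6 (148354656 to 148355596) as a transcribed pseudogene, close in sequence to the X-linked Rps4x. It had 18.5, 23.5 and 29.8 CPM in WT line 1 and 42.2, 46.3 and 45.9 CPM in WT line 2, without overlap, a log2 difference of 0.91 ± 0.16 (SE, adjusted p = 0.00366 in edgeR). The RTF2-deficient lines lay at 38.8, 29.8 and 31.6 CPM in line 1 and 40.1, 45.9 and 37.0 CPM in line 2, so WT line 1 was the lowest of the 4 groups. The call held under all 19 other settings, with log2 differences from 0.74 to 1.10.

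The 4 X-linked genes of the subunit lists lay below 0 between the WT lines, as did 76 of all 77 genes of these lists, and none of the 4 passed the test in edgeR. Rpl10, which joins the 60S subunit late, stood at -0.34 (95% interval -0.62 to -0.05, adjusted p = 0.115), Rpl39 at -0.28 (-0.62 to 0.06), Rps4x at -0.27 (-0.65 to 0.12) and Rpl36a at -0.13 (-0.52 to 0.25). Rpl10 had 852, 945 and 965 CPM in WT line 1 and 579, 856 and 755 CPM in WT line 2, which overlapped by replicate 1 of the first and replicate 2 of the second. Without WT line 2 replicate 1, on which the lean of the family rested, the differences were -0.20 for Rpl10, -0.13 for Rpl39, -0.11 for Rps4x and 0.02 for Rpl36a. By genotype these 4 genes, in the order first given, stood at 0.02, -0.12, 0.00 and -0.02.

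The wider pathway was described from lists of genes chosen for their roles. Among ribosomal proteins whose symbols the rule does not reach, Fau and Rack1 gave log2 fold changes of -0.02 and -0.01 by genotype. Of 21 translation genes with TOP mRNAs, 0 were called in edgeR, with 1 at an unadjusted p under 0.05 (28.5% of all genes) and a median of 0.03. Of 46 ribosome biogenesis factors tested, 1 was lower and 3 were higher, with a median of 0.12, and of 12 genes of the RNA polymerase I machinery 0 were lower and 1 was higher, with a median of 0.10. Of 16 TOP and mTORC1 regulators, 2 were lower and 1 was higher, with a median of 0.06. These counts stand beside 8.18% lower and 4.98% higher of all genes.

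Among the biogenesis factors, Bop1, which acts in 60S rRNA processing, fell by 0.64 on the log2 scale (adjusted p = 0.00275 in edgeR), from 68.3 ± 12.6 to 44.9 ± 5.69 CPM in line 1 and from 73.8 ± 10.7 to 46.1 ± 6.67 CPM in line 2. Nop14 and Utp20 of the 40S processome rose by 0.43 and 0.38 (adjusted p = 0.00114 and 0.00866 in edgeR), and Lsg1, a GTPase of late 60S maturation, by 0.22 (adjusted p = 0.0286 in edgeR). Rrn3, which brings RNA polymerase I to rDNA promoters, rose by 0.28 (adjusted p = 0.0112 in edgeR). Bop1 thus moved against the other called factors.

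Among the regulators, Tsc2, which restrains mTORC1, fell by 0.63 on the log2 scale (adjusted p = 0.000173 in edgeR), from 86.0 ± 6.30 to 56.8 ± 5.34 CPM in line 1 and from 89.4 ± 10.8 to 56.4 ± 4.40 CPM in line 2. Rps6kb2, the gene of the S6 kinase S6K2, fell by 0.73 (adjusted p = 0.00049 in edgeR), from 14.2 ± 0.655 to 9.62 ± 0.805 CPM in line 1 and from 15.3 ± 0.744 to 8.24 ± 1.4 CPM in line 2. Larp4, an RNA-binding protein of the La family, rose by 0.25 (adjusted p = 0.0422 in edgeR). The substrate of S6K2, Rps6, is the member given above at 0.03.

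Mitochondrial ribosomal proteins form a separate ribosome in the mitochondrion and share no gene with the family. Of 78 such genes tested, 9 were lower and 0 were higher in edgeR (18 at an unadjusted p under 0.05), against 8.18% lower, 4.98% higher and 28.5% at an unadjusted p under 0.05 of all genes, with a median log2 fold change of 0.01. Mrps25 fell by 0.92, Mrps26 by 0.73, Mrpl38 by 0.70 and Mrpl54 by 0.67 on the log2 scale. Mrps25 went from 24.3 ± 4.14 to 13.3 ± 1.25 CPM in line 1 and from 26.7 ± 4.92 to 13.5 ± 1.34 CPM in line 2 (adjusted p = 0.000227 in edgeR). No test of the difference between the 2 families was run.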

How the data were processed

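RNA of WT and RTF2-deficient MEFs, total RNA per the labels, was sequenced as 75 base pair single reads. The authors deposited raw counts per Entrez gene, not normalized. The methods name Salmon and tximport on mm10 gene models and the submitters' notes name HTSeq, so the counter is unsettled, and no source used here gives strand use or poly(A) selection. Processed pseudogenes share reads with these genes: the 6 pseudogene rows in the table held 0.773 to 0.856% of the members' counts.

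Symbols and positions came from RefSeq (GRCm38.p6), and lengths from GENCODE M21, as the shortest principal coding transcript where one was listed. edgeR 4.0.16 (R 4.3.3) tested all 14263 genes that passed filterByExpr, after TMM, by glmQLFTest with terms for line and genotype, or with contrasts of the 4 groups. Intervals are 95% t intervals. DESeq2 1.42.0 and other scalings, filters and left-out libraries were alternatives. log2 CPM used a prior count of 2. The fits were tested on simulated data in which genes varied independently, so the movement that the members share was not part of that test. The scaling to the members and the paralog ratios were added after the values were seen. Same-numbered libraries deviated together in 3 of 3 pairs of line 1 (correlations from 0.430 to 0.625) but in 1 of 3 pairs of line 2 (-0.587 to 0.170). The labels tie the numbers to nothing shared, so the fit with the number as a block was an alternative. Sister libraries differed beyond counting noise in every group. Named genes were the paralog pairs, the 4 largest interactions, the 5 highest and 5 lowest levels, members outside both subunit lists, 12 genes of known role and, from each pathway list, up to 4 called genes. Members and lists were chosen with earlier results of these data known. All per-sample columns were used. Some items are not reported here.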

Additional observations from a re-analysis of the deposited data

How the results depend on the processing

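The count of members called by genotype stayed at 0 under the other size factors, library totals and TMM without the members. It also stayed at 0 with no filter, in DESeq2 and with no line term. These fits called from 8.18% (no filter) to 18.9% (DESeq2) of all genes. The fit on sums of the libraries of each group had 4 samples and called no gene at all, so it does not bear on this count. The count was 1 (Rpl22) when scaled to the members, against 3.67% of all genes, and 1 with the length trend removed, against 14.2%. It was 0 to 1 when single libraries were left out, against 8 to 13.7% of all genes. The counts within lines and for the interaction stayed at 0 throughout. These fits called 0.231 to 5.97% of all genes in line 1, 3.67 to 18.1% in line 2 and 0.456 to 2.87% for the interaction. Without WT line 2 replicate 2, 14 members in line 2 and 9 for the interaction had an unadjusted p under 0.05 in edgeR, against 27.7% and 10% of all genes. In line 1 the lowest adjusted p of a member was 0.0501 in edgeR (Rps4l, without WT line 1 replicate 3). Between the WT lines the count of 1 became 3 in DESeq2 and ranged from 1 to 9 when single libraries were left out. The cause was not tested. The median log2 fold change by genotype ranged from -0.04 to 0.10 when single libraries were left out and from 0.00 to 0.04 under the other scalings, filters and designs, and it was 0.11 with the length trend removed (0.02 over all genes), where 9 members had an unadjusted p under 0.05 (30% of all genes) against 1 in the reported fit (28.5%). Of 759 values of named genes under alternatives, 72 had another sign than the reported value, none of them called, so no direction is read from small fold changes. With the replicate number as a block, 0 members were called by genotype and 1 between the WT lines, and no call changed. In line 1, where all 3 same-numbered pairs deviated together, the blocked fit called 0 members and 357 genes in all, with 2 members at an unadjusted p under 0.05 (13.7% of all genes). In line 2, only 1 of 3 pairs did. With the 6 pseudogene rows added, the mean shares were 4.59, 4.38, 4.33 and 4.45% (WT and RTF2-deficient line 1, then line 2), and without the most abundant member (Rplp0) 4.38, 4.18, 4.13 and 4.25%. In single lines the 95% intervals of 71 (line 1) and 60 (line 2) of the 77 genes of the subunit lists lay inside -0.5 to 0.5, and for the interaction only those of 7 did.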

Other observations

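Introns of ribosomal protein genes hold many small nucleolar RNAs, which guide the modification of rRNA and are released as the host mRNA is spliced. The count table held 33 snoRNA genes inside 24 of the members, and 13 of the snoRNA genes passed the filter on low counts. Of these 13, 2 were called after RTF2 loss, both higher, against 8.18% lower and 4.98% higher of all genes. By genotype, Snora65, inside Rpl12, had 93 to 165 counts in WT and 136 to 217 in RTF2-deficient libraries (log2 fold change 0.59, adjusted p = 0.0164 in edgeR), while Rpl12 stood at -0.02. Single reads of 75 bases do not tell a mature snoRNA from retained host intron.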
